A study of Rattus norvegicus with 18 samples.

Results

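The lectin-like receptors of the natural killer (NK) gene complex considered here are Klrb1b, Klrc3, Klri2, Klri1, Ly49s3, Klrd1, Klrk1 and Klrc1, and their RNA was read in rat peripheral blood mononuclear cells (PBMC). A probe counted as belonging to a gene when the gene name in the scanner output was that of the gene. Of the 8 genes, 6 had at least 1 probe, which gave 7 probes of the 41012 different probes on the array. No spot carried the names Klri1 or Klrc1. The 7 probes were well above background on each of the 18 arrays, and they passed the filter on low values, which kept 25237 probes. The genes were chosen because of their values on these same arrays, so their log2 ratios are given as a description and no test of them is used as support.

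The NK gene complex is a gene cluster that encodes C-type lectin-like receptors of NK cells and of some T cells. Some of these receptors inhibit the cell and carry inhibitory motifs in their own tails, whereas others activate it through adaptor proteins such as Tyrobp (DAP12) and Hcst (DAP10). Klrd1 (CD94) pairs with NKG2 chains encoded by the Klrc genes, Klre1 pairs with Klri1 or Klri2, and Klrk1 (NKG2D) pairs with itself. Klrb1b is an inhibitory receptor of the NKR-P1 family, and Ly49s3 belongs to the Ly49 family, whose members recognise MHC class I molecules.

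The RNA came from male Wistar rats that entered the study at 2 months of age and ate 1 of 3 purified diets for 4 months. The low-fat control diet (LFD) drew 70% of its energy from carbohydrate, 20% from protein and 10% from fat, and was eaten freely. The high-fat diet (HFD) drew 60% from fat and 20% each from protein and carbohydrate, and the high-protein diet (HPD) drew 45% each from protein, mainly casein, and carbohydrate, and 10% from fat. Both were given in amounts matched to the energy intake of the control rats, and all rats were fasted for 14 h before they were killed. Each diet had 6 arrays. Every array carried the RNA of an individual sample in Cy5 and, in Cy3, a reference made by mixing the samples in equal amounts, so a log2 ratio of 0 means the level of the pool. The labels do not say outright that every array is a different rat, so spreads and p-values here are between these samples.

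The title of 1 array says HFD replicate 7 while its source name says HPD, and it was counted as HPD and is called HPD replicate 7 here. The arrays lay on 5 slides. Slides 1 and 5 held no HPD array, slide 2 no LFD array and slide 4 no HFD array. Between 53.1% and 63.5% of probes were well above background in Cy5 on an array. Over the 25237 probes, HFD replicates 1 and 6 correlated at 0.61, the highest value of any arrays, and their values differed by between 0.0041 and 0.25 in the 7 probes. LFD replicates 2 and 6 correlated at -0.50, the lowest value. The dyes are stated in the labels and each array is set against a mixture of these samples, so the ratios were kept in their direction. The markers of mononuclear cells were present: 13 of 14 T cell markers, 7 of 10 B cell markers and 6 of 10 monocyte markers passed the filter, and these stood well above background on each array. Platelet and erythroid markers passed as well, 7 of 8 and 7 of 9. These are bulk samples, so fewer NK cells and less receptor RNA per cell cannot be told apart.

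On the rn4 build, which the file headers name, the probes lie on chromosome 4 in the order Klrb1b (chr4:165699496-165699555), Klrd1 (chr4:166878917-166878976), Klrk1 (chr4:166915175-166915234), Klrc3 probe 1 (chr4:166941806-166941865), Klrc3 probe 2 (chr4:166941826-166941885), Klri2 (chr4:167092275-167092842) and Ly49s3 (chr4:168023729-168024160). The Klrd1 probe lies on the plus strand and the others on the minus strand. The Ly49s3 probe lists no RefSeq gene, and its position overlaps that of the Ly49i4 probe. The Klrc3 probes overlap each other. Both also list the RefSeq accession of Klrc1, and probe 2 lists that of Klrc2 as well, so signal from these near-identical genes cannot be told apart on them. Exon positions of the probes were not analysed here.

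The 250 bases upstream of the RefSeq start are shown for Klrc3 and Klri2, whose values followed each other over the arrays as described below, and for Klrk1, which lies next to Klrc3 and did not follow it. They are given 5′ to 3′ on the gene's strand, from RefSeq on build GRCr8, and all are on the minus strand. Capitals mark matches, on either strand, to the letters of 4 motifs of lymphocyte transcription factors. The core bound by the T-box factors T-bet and Eomes was searched as AGGTGT. The core bound by Runx factors was searched as TGTGGT. The core bound by Ets factors was searched as AGGAAG. The core bound by the GATA family was searched as AGATAA. No match overlapped another.
Klrc3 (chr4:164798759-164799008): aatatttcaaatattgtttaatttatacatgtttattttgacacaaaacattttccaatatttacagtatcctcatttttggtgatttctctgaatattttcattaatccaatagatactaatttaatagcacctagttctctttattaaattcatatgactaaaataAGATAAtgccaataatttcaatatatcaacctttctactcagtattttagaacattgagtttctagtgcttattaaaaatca
Klri2 (chr4:164947505-164947754): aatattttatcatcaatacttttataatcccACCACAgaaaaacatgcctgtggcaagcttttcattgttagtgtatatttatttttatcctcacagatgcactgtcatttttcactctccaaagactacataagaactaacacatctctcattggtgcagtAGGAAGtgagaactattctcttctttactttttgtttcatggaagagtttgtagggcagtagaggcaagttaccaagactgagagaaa
Klrk1 (chr4:164778383-164778632): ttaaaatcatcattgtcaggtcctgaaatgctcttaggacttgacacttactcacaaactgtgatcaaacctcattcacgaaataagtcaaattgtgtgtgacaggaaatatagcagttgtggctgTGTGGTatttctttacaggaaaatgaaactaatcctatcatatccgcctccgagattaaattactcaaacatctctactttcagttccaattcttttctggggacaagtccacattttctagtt
The Klrc3 window held 1 GATA match, the Klri2 window 1 Runx and 1 Ets match, and the Klrk1 window 1 Runx match. None of the 3 windows held the T-box core. Of 33469 RefSeq promoter windows of this length, 11.6% held the T-box core, 14.5% the Runx core, 29.5% the Ets core and 10.3% the core of the GATA family. Klrc3 and Klri2 shared no motif of the 4, and their windows had the same base at 30% of aligned positions without gaps. G and C made up 22.8% of the Klrc3 window, 35.2% of the Klri2 window and 36.8% of the Klrk1 window.

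Klrc3, which encodes the NKG2E chain that pairs with Klrd1, spread more over the arrays on its probe 2 than any other of these genes. On probe 1 the SD of its log2 ratio was 1.14, against 1.17 for Klri2 and 1.41 for Ly49s3. On probe 2 the log2 ratio in LFD ran from -2.90 through a median of 0.64 to 1.39, in HFD from -2.91 through 0.25 to 1.14, and in HPD from -2.53 through -0.58 to 0.08. The highest array stood 19.6-fold above the lowest. The ranges of the 3 diets overlapped, and every diet held at least 1 array below -2. On probe 2 the arrays are described in 3 bands, with a wide lower gap and an upper gap of only 0.42. By the gap rule given at the end (a gap of at least 1 and 0.4 of the range), none of the 7 probes had its arrays in 2 parts. The lowest 5 arrays lay between -2.91 and -2.15 and were LFD replicates 3 and 5, HFD replicate 4 and HPD replicates 2 and 4. A gap of 1.52 separated them from the next array, at -0.63. Above it lay 6 arrays, up to 0.08, which were HFD replicates 1 and 6 and HPD replicates 1, 3, 5 and 7. The highest 7 began at 0.50 and were LFD replicates 1, 2, 4 and 6 and HFD replicates 2, 3 and 5. No HPD array was among these 7. Probe 1, which overlaps probe 2, ordered the arrays almost alike (Spearman rho 0.99), with the same lowest 5 and the same highest 7, over a smaller range of 3.42. Its largest gap was 0.58 and lay above the lowest 4 arrays, with 0.55 above the lowest 5.

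Klri2, whose product is the activating partner of Klre1, lies 150 kb from Klrc3. Its log2 ratio in LFD ran from -2.07 through a median of 0.51 to 0.80, in HFD from -1.78 through 0.17 to 0.74, and in HPD from -2.53 through -0.45 to 0.29. The highest array stood 10.1-fold above the lowest. Its lowest 5 arrays, between -2.53 and -1.78, were those of Klrc3, and a gap of 1.23 separated them from the next, at -0.55. Its highest 7, from 0.47 to 0.80, were also those of Klrc3, with a gap of only 0.19 below them. Over all 18 arrays Klri2 and Klrc3 probe 2 correlated at 0.95 (rho 0.86), and at 0.95 without the 2 arrays farthest from the Klrc3 median. Over the 13 arrays above the Klrc3 gap they correlated at 0.84 (rho 0.73). Within the middle 6 arrays the value was 0.71, and within the highest 7 it was -0.69.

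Ly49s3, a Ly49 receptor of the stimulatory kind, showed the opposite order. Its log2 ratio in LFD ran from -2.92 through a median of -1.15 to 0.66, in HFD from -2.47 through -0.99 to 1.16, and in HPD from 0.13 through 0.44 to 1.21. The highest array stood 17.4-fold above the lowest. Its lowest 7 arrays, between -2.92 and -1.10, were the 7 with the highest Klrc3 values, and a gap of 1.23 separated them from the other 11, which lay between 0.13 and 1.21. All 6 HPD arrays were among those 11, with 2 LFD and 3 HFD arrays. Ly49s3 and Klrc3 probe 2 correlated at -0.74 (rho -0.75), and at -0.72 without the 2 arrays farthest from the Klrc3 median. Within the highest 7 Klrc3 arrays the correlation was 0.75, and within the middle 6 it was 0.50.

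**Figure D1:**
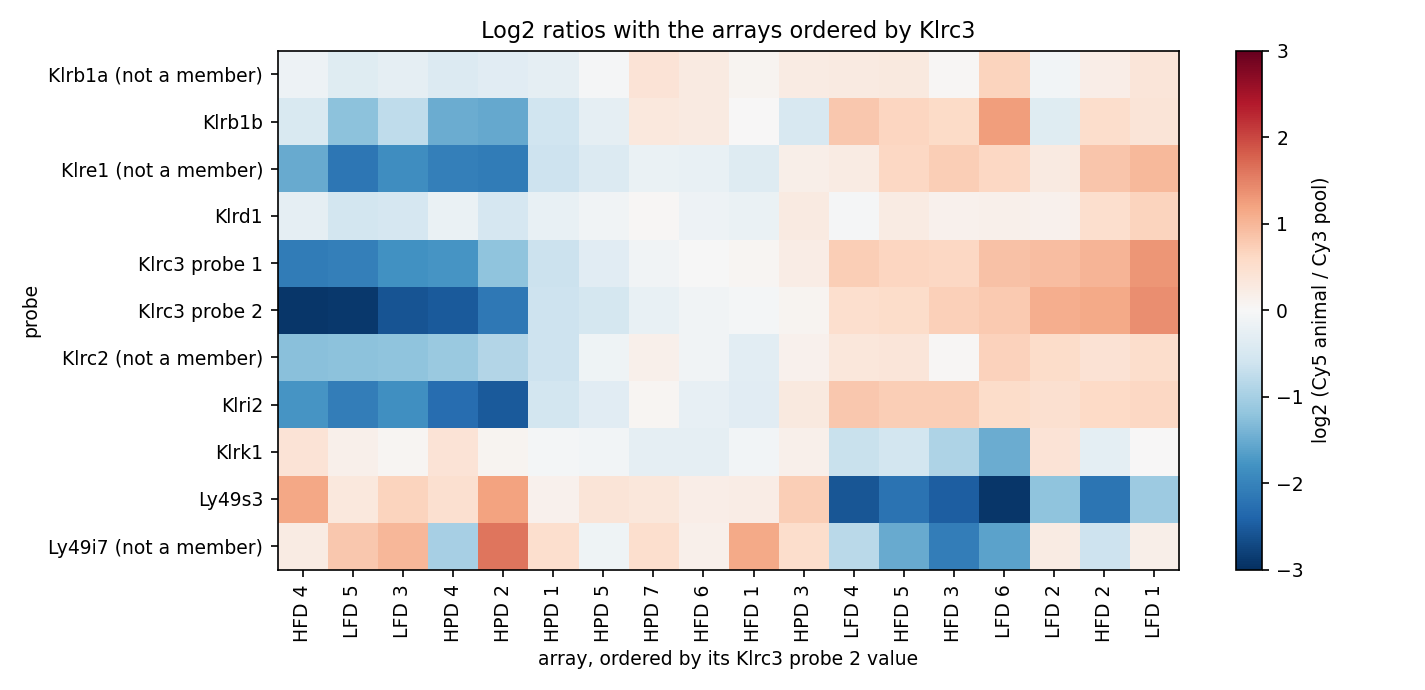
Log2 ratios (colour, from -3 to 3) of 11 probes in rows, grouped by how they ordered the arrays, for the 18 arrays in columns, ordered by their Klrc3 probe 2 value from lowest to highest. The 5 arrays on the left are low in Klrc3, Klri2, Klre1 and Klrc2, and the 7 on the right are low in Ly49s3.

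Klrb1b, the inhibitory NKR-P1B receptor, followed Klrc3 and Klri2 in part although it lies 1242 kb from Klrc3. Its log2 ratio in LFD ran from -1.24 through a median of 0.0041 to 1.25, in HFD from -0.46 through 0.40 to 0.65, and in HPD from -1.54 through -0.54 to 0.32. The values had no gap as wide as those of Klrc3: the largest was 0.48, above HPD replicates 2 and 4 and LFD replicate 5. All of these lay on slide 4. Of its lowest 5 arrays 4 were those of Klrc3, and of its highest 7 arrays 6 were. Klrb1b correlated at 0.87 with Klri2 (rho 0.90) and at 0.79 with Klrc3 probe 2 (rho 0.74). The Klrb1b pool signal itself varied, with an SD of 0.43 in Cy3 against 0.94 in Cy5.

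Klrd1, the common partner of the Klrc chains, varied least. Its log2 ratio in LFD ran from -0.55 through a median of 0.05 to 0.66, in HFD from -0.27 through -0.0093 to 0.50, and in HPD from -0.50 through -0.15 to 0.28. The highest array stood 2.32-fold above the lowest, and 45.2% of all probes had a smaller SD. It ordered the arrays much as Klrc3 did (r 0.85, rho 0.89), with 4 of the lowest 5 arrays and 6 of the highest 7 in common, but over a range of 1.21 against 4.29.

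Klrk1, which encodes the activating receptor NKG2D, lies 26.6 kb from Klrc3 probe 2 and did not follow it. Its log2 ratio in LFD ran from -1.49 through a median of 0.03 to 0.40, in HFD from -0.93 through -0.28 to 0.40, and in HPD from -0.26 through 0.0073 to 0.42. The lowest 4 arrays, LFD replicates 4 and 6 and HFD replicates 3 and 5, lay between -1.49 and -0.56, and the ranges of the diets overlapped. None of its lowest 5 arrays was among the lowest 5 of Klrc3, and its lowest 4 arrays were also the lowest 4 of Ly49s3. Klrk1 correlated at -0.53 with Klrc3 probe 2 (rho -0.51) and at 0.76 with Ly49s3 (rho 0.72). An unnamed probe at chr4:166914344-166914403, within 1 kb of the Klrk1 probe, had the same lowest 4 arrays and correlated with it at 0.85 (rho 0.74).

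The spread lay in the animals' channel. Over the arrays, after each array's median was removed, Klrc3 probe 2 had an SD of 1.50 in Cy5 and 0.18 in Cy3, Klri2 of 1.24 and 0.18, and Ly49s3 of 1.43 and 0.28. The median over all probes tested was 0.37 in Cy5 and 0.22 in Cy3. The SD of the log2 ratio of Klrc3 probe 2 exceeded that of 99.8% of the probes tested, that of Ly49s3 99.7%, that of Klri2 99.1% and that of Klrb1b 93.6%, while Klrk1 stood at 70.7%.

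**Figure D2:**
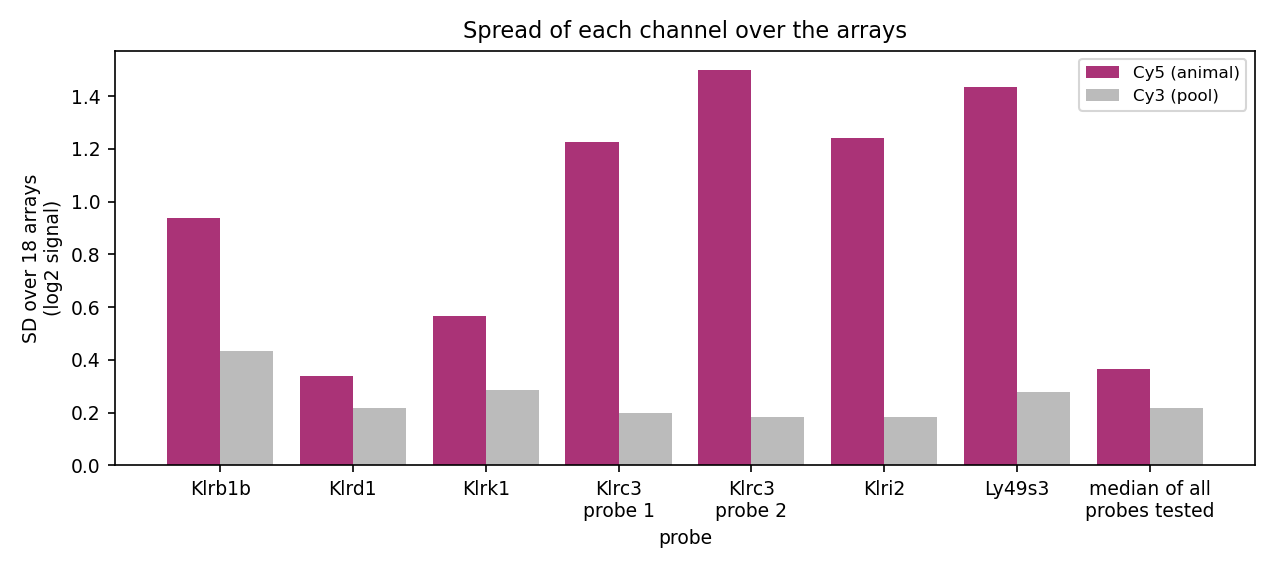
SD over 18 arrays of the log2 signal (vertical axis) in the Cy5 channel, which holds the individual sample, and in the Cy3 channel, which holds the pool, for each probe and for the median of all probes tested. Klrc3, Klri2 and Ly49s3 have tall Cy5 bars of 1.23 to 1.50 and Cy3 bars of at most 0.28.

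Neighbours on the chromosome did not all divide the arrays alike. Between the probes of these genes and up to 1 Mb beyond them, 57 of 75 probes passed the filter. Of these 57, 5 had exactly the lowest 5 arrays of Klrc3 (8.77%, against 0.0634% of all 25237 probes), and those were the Klrc3 probes themselves, Klri2, Klre1 and Klrc2. The other 11 of the 16 such probes lay elsewhere. The highest 7 arrays were exactly those of Klrc3 for 4 of all 25237 probes (0.0158%), and these were the Klrc3 probes, Klri2 and Klre1, which made up 7.02% of the chromosome 4 window. Exactly the lowest 7 arrays of Ly49s3 were found for 2 probes (0.00792%), Ly49s3 itself and an unnamed probe on another chromosome. Exactly the lowest 4 of Klrk1 were found for 5 probes (0.0198%), among them Ly49s3. Since the genes were chosen on these values, these shares describe the arrays and test nothing.

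Klre1 and Klrc2, which are not among the 8 genes, were the named probes most like Klrc3 and Klri2. Klre1, the chain that pairs with Klri1 or Klri2, ran from -2.17 to 0.98 over the arrays and correlated at 0.97 with Klrc3 probe 2 (rho 0.95) and at 0.98 with Klri2 (rho 0.93). Klrc2, the activating NKG2C chain, ran from -1.26 to 0.69 and correlated at 0.97 with Klrc3 probe 2 (rho 0.94). Its accession is also listed on that probe. The third most like Klrc3 was Rasal2, a Ras GTPase-activating protein on chromosome 13 (r 0.89, rho 0.86), well above background on 15 of 18 arrays, and the third most like Klri2 was Scin, an actin-severing protein on chromosome 6 (r 0.85, rho 0.81). In all, 23 of the other probes (0.0911%) reached a correlation of 0.8 with Klrc3 probe 2, and 5 of these lay in the chromosome 4 window (8.93% of its other probes).

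For Klrb1b the most alike were Klrb1a (r 0.90, rho 0.85), the activating NKR-P1A receptor, then Klre1 (r 0.87, rho 0.85) and Mark1, a kinase on chromosome 13 (r 0.85, rho 0.84). For Klrd1 they lay on other chromosomes: Dapk2 (r 0.92, rho 0.88), a death-associated kinase, Faslg (r 0.90, rho 0.94), the death ligand of cytotoxic lymphocytes, and Sytl2 (r 0.89, rho 0.82), a protein of granule transport. For Klrk1 they were Traf3ip2 (r 0.79, rho 0.70), an adaptor of interleukin 17 signalling, Cd40lg (r 0.78, rho 0.69), the CD40 ligand of T cells, and Phkg2 (r 0.77, rho 0.65), a phosphorylase kinase subunit. Among named probes Ly49s3 was most like Ly49i7 (r 0.79, rho 0.69), an inhibitory Ly49 receptor further along the cluster. The Ly49i7 probe was well above background on only 7 of 18 arrays. Next came Uxt (r 0.73, rho 0.76), a chaperone-like cofactor, and Mrps28 (r 0.72, rho 0.56), a mitochondrial ribosomal protein. Probes with only a provisional name or none were not ranked, and some followed Ly49s3 more closely than Uxt. In the chromosome 4 window these were the unnamed probe near Klrk1 (r 0.77, rho 0.63) and RGD1565709 (r 0.76, rho 0.70), which lies before Klrb1b. Of the 7 highest Klrc3 arrays, 6 were among the lowest 7 of RGD1565709. Each value is over 18 arrays that share the pool and, in groups, a slide.

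**Figure D3:**
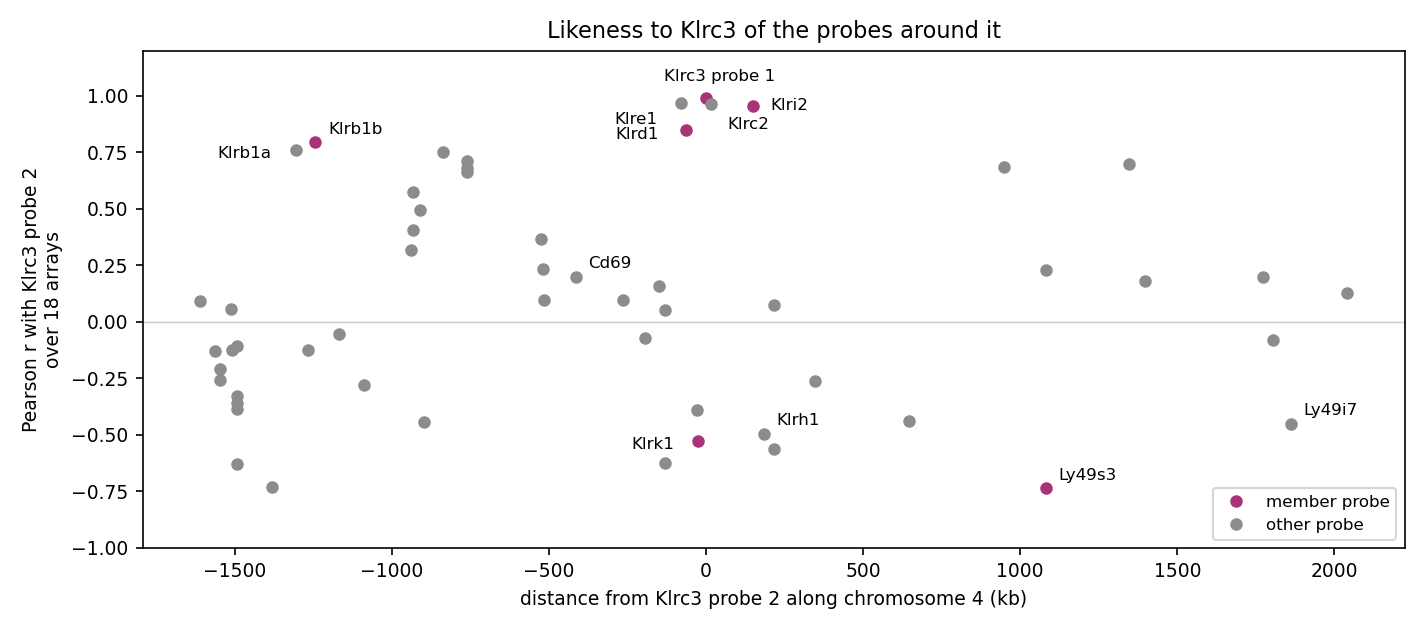
Pearson correlation with Klrc3 probe 2 over 18 arrays (vertical axis) of 56 probes against their distance from it along chromosome 4 in kb (horizontal axis), with the receptor probes described here in purple and other probes in grey. Klri2, Klre1 and Klrc2 stand near 1 close to Klrc3, while Klrk1 at a distance of 26.6 kb stands at -0.53 and Ly49s3 at -0.74.

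Other neighbours of the complex held intermediate or unlike values. Between Klrb1b and Klre1, the lectin ligand gene Clec2d correlated with Klrc3 probe 2 at 0.57 and 0.41 on its 2 probes, Klrb1c, an NKR-P1 receptor gene, at 0.66, Clec2g, a lectin-like gene of the ligand family, at 0.24, and Cd69, an early activation marker, at 0.20. The platelet receptor gene Clec1b stood at 0.10, the oxidised lipoprotein receptor gene Olr1 at -0.07 and the autophagy gene Gabarapl1 at 0.05. Beyond Klri2, the lectin receptor gene Klrh1 stood at -0.50. In the Ly49 cluster Klra22 stood at 0.68, Ly49i4 at 0.23, Ly49i2 at 0.18, Ly49s7 at 0.20, Klra5 at -0.08 and Ly49i7 at -0.45. The position of the Ly49i4 probe (chr4:168024136-168024195) overlaps that of the Ly49s3 probe on rn4, yet the 2 correlated at only 0.11. Which gene the Ly49s3 probe reads could not be checked here. Of these neighbours, Ly49i7 was well above background on 7 arrays, Olr1 on 6 and Clec2d probe 1 on 5, so that most of their values are near background, and the others were on all 18. Probes of different Ly49 genes may share signal where the genes are near-identical. Window probes of neither the receptor genes nor the listed neighbours correlated with Klrc3 probe 2 from -0.73 (RGD1565709) to 0.75. The highest lies at chr4:166105530-166105589, without a gene name, and was well above background on 14 arrays. Another such probe, in the Ly49 cluster at chr4:168287169-168287229, stood at 0.70. Each shared 4 of the lowest 5 arrays of Klrc3.

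**Figure D4:**
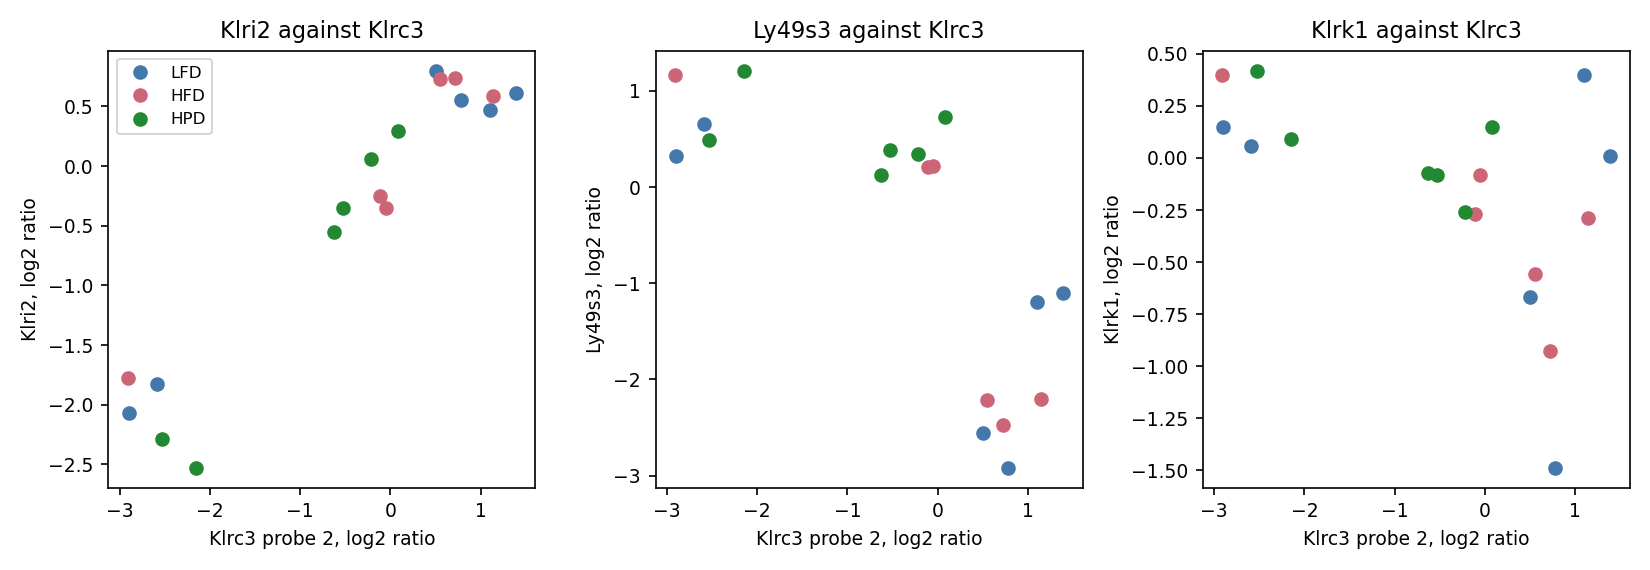
Log2 ratios of Klri2, Ly49s3 and Klrk1 (vertical axes) against that of Klrc3 probe 2 (horizontal axis), 1 point per array, coloured by diet. Klri2 lies low in the 5 arrays at the left, Ly49s3 lies between -2.92 and -1.10 in the 7 arrays at the right, and Klrk1 is low in 4 of those 7.

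The diet comparison asks whether high fat or high protein moved these receptors away from the control diet. No probe of the 25237 passed an adjusted p of 0.05 in limma in any of the 3 contrasts (0% each), and none of the 7 did. At an unadjusted p under 0.05 the counts over all probes were 507 for HFD vs LFD, 717 for HPD vs LFD and 762 for HPD vs HFD. Ly49s3 had the largest differences. Its mean was -1.13 ± 1.45 (SD, n = 6) in LFD, -0.88 ± 1.59 (SD, n = 6) in HFD and 0.55 ± 0.38 (SD, n = 6) in HPD, so that HPD exceeded LFD by 1.68 ± 0.67 (SE) and HFD by 1.43 ± 0.67 (SE). The limma adjusted p-values with Benjamini-Hochberg were 1.00 and 0.99. HPD held no array of the low Ly49s3 band, but its range overlapped those of both other diets. With the array of conflicting labels counted as HFD the differences were 1.72 and 1.30, and with slide as a block they were 1.65 and 1.47.

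Klrb1b had means of 0.01 ± 0.96 (SD, n = 6) in LFD, 0.26 ± 0.43 in HFD and -0.68 ± 0.72 in HPD. The HPD mean lay below that of LFD by 0.69 ± 0.40 on the log2 scale and below that of HFD by 0.94 ± 0.40 (SE). The first of these was -0.44 with the background model fitted without marked spots, -0.30 with it fitted on all spots and -0.44 without LFD replicate 6. The second was -0.60 with the model fitted on all spots. Klri2 had means of -0.24 ± 1.33 in LFD, -0.06 ± 0.98 in HFD and -0.90 ± 1.21 in HPD (SD, n = 6 each). Klrc3 probe 2 had means of -0.29 ± 1.93 in LFD, -0.11 ± 1.45 in HFD and -0.99 ± 1.08 in HPD (SD, n = 6 each). For both, HPD lay below LFD and HFD by less than the SD of either group. When 1 array was left out, the HPD vs LFD difference ranged from -1.02 (without LFD replicate 5) to -0.33 (without HPD replicate 2) for Klri2, and from -1.23 (without LFD replicate 5) to -0.37 (without LFD replicate 1) for Klrc3 probe 2.

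Within single slides the HPD minus LFD differences of these genes differed in sign between slides 3 and 4. The HPD minus LFD difference on slide 4 was -1.78 for Klri2 and -1.14 for Klrc3 probe 2, while on slide 3, with 1 array of each diet, it was 1.47 and 2.07. That of Klrb1b was -1.30 on slide 4 and 0.47 on slide 3, and its HPD minus HFD difference was -0.83 on slide 2 and -0.19 on slide 3. For Ly49s3, HPD was 1.97 above LFD on slide 4 and -0.27 relative to it on slide 3, and it was 2.87 above HFD on slide 2 and -0.29 relative to it on slide 3. The HPD minus HFD differences set 3 HPD arrays against 1 HFD array on slide 2, and 1 against 2 on slide 3. Those of HPD minus LFD on slide 4 set 2 arrays against 2. Without slide 1 the HPD vs LFD difference of Klrc3 probe 2 was 0.06 and that of Klri2 -0.26.

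For Klrd1 and Klrk1 the diet means lay closer. Klrd1 had means of -0.03 ± 0.46 in LFD, 0.04 ± 0.30 in HFD and -0.12 ± 0.26 in HPD, and Klrk1 of -0.26 ± 0.70, -0.29 ± 0.45 and 0.04 ± 0.24 in the same order (SD, n = 6 each). Their differences between diets ranged from -0.16 to 0.33 and were smaller than the SD over all arrays, which was 0.34 for Klrd1 and 0.49 for Klrk1.

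**Figure D5:**
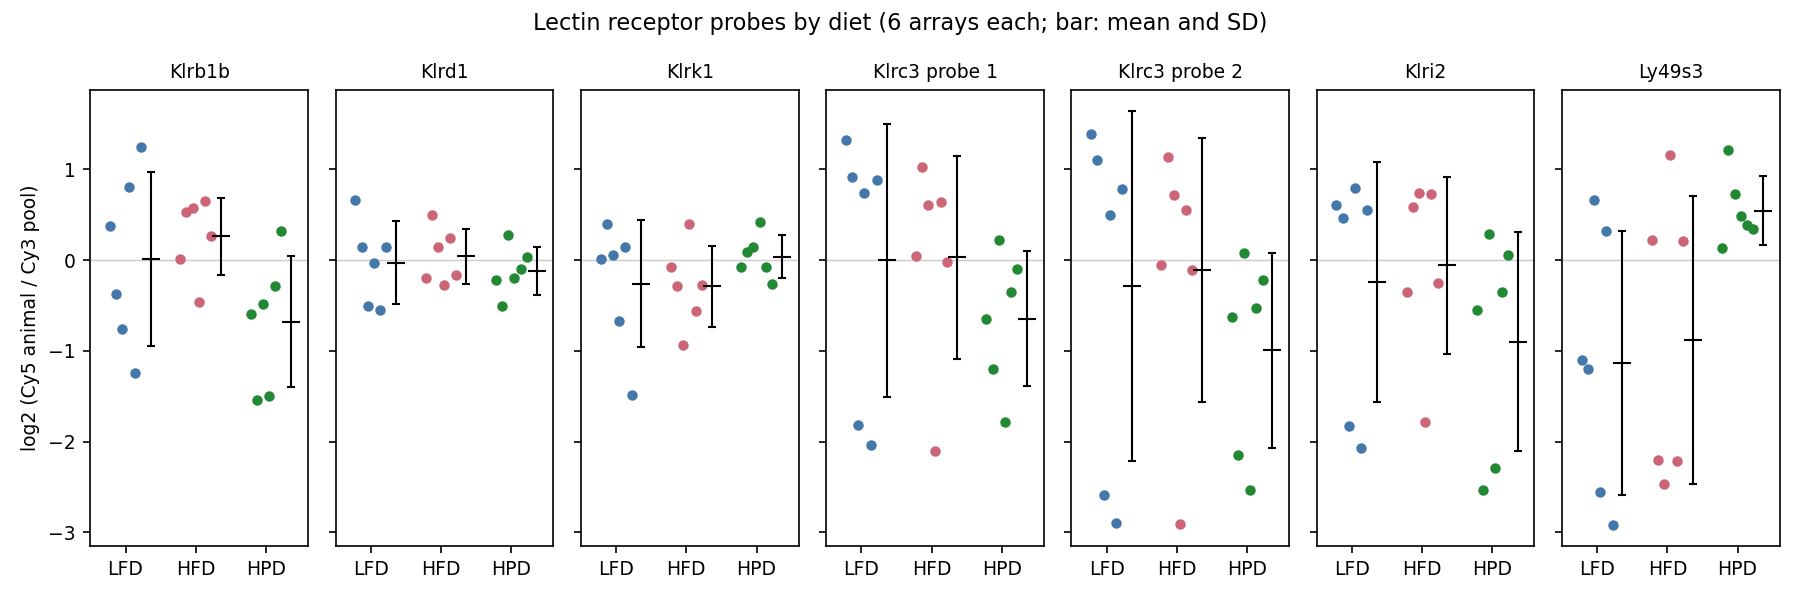
Log2 ratio (vertical axis) of each receptor probe on each array, grouped by diet, with 6 arrays per diet and the mean and SD as a black bar. The diets overlap in every panel, and in the Ly49s3 panel all 6 HPD arrays lie above 0.

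Slides differed in how they held the bands. The lowest 5 arrays of Klrc3 and Klri2 all lay on slides 3 and 4, which held 8 arrays in all, and the other 3 arrays of those slides stood at 0.50, -0.11 and -0.53 on Klrc3 probe 2. Of the lowest 7 arrays of Ly49s3, LFD replicates 1, 2 and 6 and HFD replicates 2 and 5 lay on slides 1 and 5, which held no HPD array. The others, HFD replicate 3 and LFD replicate 4, lay on slides 2 and 4. With diet in the model, the slide term gave limma adjusted p-values from 0.14 for Klrc3 probe 2 to 0.28 for Klrb1b, so that none of the 7 passed, against 89 of 25237 probes (0.353%). At an unadjusted p under 0.05, 23.2% of all probes and 5 of the 7 did, with Klrc3 probe 2 at 0.017, probe 1 at 0.028, Klri2 at 0.030, Klrk1 at 0.040 and Ly49s3 at 0.047 in limma. These 5 probes are not separate, as the Klrc3 probes overlap and Klri2 followed them. The genes were also chosen on these arrays, so the share of the 7 is a description only. The part of slide in the bands was not tested.

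The genes that work with these receptors were read from lists, without the 8 genes themselves. None of the listed genes passed an adjusted p of 0.05 in limma in any diet contrast. For HPD vs LFD the median difference over all probes tested was 0.02, with 46.1% of probes lower. Of 19 neighbours of the complex 12 were lower (median -0.16), with Klre1 at -0.54 ± 0.58, Clec1b at -0.47 ± 0.44 and Ly49s7 at -0.47 ± 0.33 (SE). Of 17 adaptors and signalling genes 13 were lower (median -0.08), with the phosphatase Ptpn11 at -0.30 ± 0.37 the farthest. Of 15 other NK receptors 14 were lower (median -0.17), among them the adhesion receptor Cd226 at -0.48 ± 0.28 and the sphingosine phosphate receptor S1pr5 at -0.47 ± 0.24. The exception, Il18rap, the interleukin 18 receptor accessory chain, stood at 0.64 ± 0.49. Of 20 cytotoxic effectors and NK regulators 17 were lower (median -0.16), with the transcription factors Zeb2 at -0.42 ± 0.30, Tbx21 at -0.40 ± 0.47 and Nfil3 at -0.39 ± 0.24. Of the 4 ligand genes measured 2 were lower (median -0.02), with RT1-S3, an MHC class I gene, at -0.44 ± 0.29.

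For HPD vs HFD 47.7% of all probes were lower, at a median of 0.01. The counts lower were 13 of 19 neighbours (median -0.21), 15 of 17 adaptors (-0.16), 13 of 15 other NK receptors (-0.24), 15 of 20 effectors and regulators (-0.28) and 2 of 4 ligands (-0.02). Ifng, the interferon of NK and T cells, was at -0.82 ± 0.32, Ncr1, the activating receptor NKp46, at -0.77 ± 0.51, and Tyrobp, the adaptor of Ly49s3 and Klrc2, which monocytes also express, at -0.37 ± 0.19. In the same contrast all 6 monocyte markers (median -0.35), all 7 platelet markers (-0.37) and all 7 erythroid markers (-0.69) were lower, with Cd14, the monocyte receptor for lipopolysaccharide, at -1.53 ± 0.55 (SE). Of the other markers, 3 of 13 for T cells (median 0.10), 3 of 7 for B cells (0.06) and 2 of 5 for neutrophils (0.09) were lower. For HFD vs LFD, where 48.5% of all probes were lower (median 0.01), the counts lower were 7 of 19, 5 of 17, 7 of 15, 6 of 20 and 2 of 4 in the same order, with medians of 0.03, 0.04, 0.02, 0.06 and 0.0014. These contrasts share their samples, so the counts do not stand independently.

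Lists of NK genes and of other cells moved over the arrays as well. The mean log2 ratio of the 20 effectors and regulators ranged from -0.47 to 0.50 and was -0.30 and -0.47 in LFD replicates 3 and 5, -0.27 in HFD replicate 4, and -0.02 and -0.33 in HPD replicates 2 and 4, the lowest 5 arrays of Klrc3. HPD replicate 1, which is not among those 5, stood at -0.47. The mean of the 15 other NK receptors in the same 5 arrays was -0.08, -0.43, -0.12, 0.09 and -0.40, within a range over all arrays of -0.51 to 0.67. Over the 18 arrays the mean of the effectors and regulators correlated with Klrc3 probe 2 at 0.76 and that of the other NK receptors at 0.56. The neighbours, which include Klre1 and Klrc2, the genes most like Klrc3, stood at 0.63. The adaptors and ligands stood at 0.51 and 0.49. Clec2d is in both the list of neighbours and that of ligands. Of the marker lists, B cells stood at 0.39, neutrophils at 0.37, erythroid cells at 0.35, platelets at 0.10, monocytes at 0.04 and T cells at -0.16. Marker means ranged from -0.62 to 0.29 for T cells, -0.67 to 0.36 for B cells, -1.05 to 0.79 for monocytes, -1.29 to 0.53 for neutrophils, -2.30 to 1.42 for platelets and -1.51 to 0.93 for erythroid cells. In HPD vs LFD all 7 platelet and all 7 erythroid markers were lower, with medians of -0.72 and -0.72, as were 5 of 6 monocyte, 3 of 5 neutrophil, 3 of 7 B cell and 3 of 13 T cell markers. The part of these cells in the receptor values was not tested.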

How the data were processed

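PBMC RNA was hybridised to 2-colour Agilent arrays. Per the labels' protocols, Cy5 held the individual sample and Cy3 the pool. The submitters' processing notes name Agilent Feature Extraction 10.5.1.1 as the maker of the deposited scanner output. Its processed signals are intensity values on a linear scale after background subtraction and dye normalization, per the file headers. Flags of spots are deposited as a score of 0 or 1, per the file headers. How the authors made their deposited log2 table is not stated here. Its columns have a median of 8.40 and its centring is unknown, but array differences matched those of the ratios at a correlation of 0.891 over 20256 probes, so it served as an alternative only.

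The value used was log2 of Cy5 over Cy3 processed signal, with outlier spots missing and spots of a probe averaged. Probes well above background in Cy5 on at least 5 of 18 arrays were tested. Diets were fitted as group means over all arrays in limma 3.58.1 (R 4.3.3), with Benjamini-Hochberg adjustment at 0.05; the fit was tested on simulated data. The number of arrays limits the precision. RefSeq (GRCr8) named 19703 probes and the file's names were kept for the others.

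All probes of the 8 genes were described. Named beside them were, for the brightest probe of each gene, the 3 named probes with the highest Pearson correlation, listed neighbours within 1 Mb, and the 3 listed genes with the largest differences, of which examples are given. The genes and lists were chosen with earlier results of these data known. No clear pairing of the arrays by replicate number was seen, and none was used in the main fit. Alternatives covered background correction, scaling, filters, slide, the conflicting label, array weights, the authors' table and leaving out each array.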

Additional observations from a re-analysis of the deposited data

Results flagged for a closer look

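Of 21 sets of 6 arrays (7 probes in 3 diets), 2 held an array standing far from the other 5. The rule marks about 1 set in 20 by chance. That rate cannot be set against the 2, because the genes were chosen on these values and the probes are not separate. Both were HFD replicate 4, whose log2 ratio was -2.10 on Klrc3 probe 1 and -2.91 on Klrc3 probe 2, which overlaps it. The other HFD arrays lay between -0.02 and 1.03 on probe 1 and between -0.11 and 1.14 on probe 2. HFD replicate 4 is the only HFD array among the lowest 5 of Klrc3, which also hold LFD and HPD arrays. Klri2 stood at -1.78 and Ly49s3 at 1.16 on the same array.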

How the results depend on the processing

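The diet counts were 0 under all alternatives except for HPD vs LFD, which had 2 probes with array quality weights and 0 to 1 when 1 array was left out (1 without LFD replicate 2). With a replicate block the diet counts were 0 as well. Of 16 pairs of arrays sharing a number, 6 correlated above 0.1 (median 0.013, against -0.024 for the other pairs). No clear pairing by number was seen, though these correlations cannot exclude one. The 89 probes with a slide term became 884 with normexp without marked spots, 830 with normexp on all spots, 164 with median-centred arrays, 26 with scaling, 168 with Cy5 alone, 263 with probes well above background on all arrays, 8 with no filter, 44 with the brightest probe per gene, 259 with the conflicting array as HFD, 492 without it, 0 with array weights and 2044 in the authors' table. They ranged from 0 to 3165 when 1 array was left out (3165 without HFD replicate 5). The cause was not tested. Averaging HFD replicates 1 and 6 was not run for slide, as they lie on different slides.

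By a rule that asks for a largest gap of at least 1 and 0.4 of the range, 55 probes (0.218%) had their arrays in 2 parts, none of them of these genes. The count was 119 at a gap of 0.5, 31 at 1.5, 24 and 16 with normexp without marked spots and on all spots, 111 with Cy5 alone, 30 with the stricter filter and 155 with no filter, again without these genes. Chosen after seeing the data, a gap of 1 and 0.25 of the range gave 183 probes, and a gap of 1 alone 208, with Klrc3 probe 2, Klri2 and Ly49s3 among both. The lowest 5 arrays of the Klrc3 probes and Klri2 were the same with both normexp settings, with median-centring, with scaling and with Cy5 alone; the filters and the kept outlier spots left their values as they were. Of 732 member differences recomputed, 686 kept their sign and none moved by more than the residual SD, which is a spread between single arrays. Of the 21 differences, 11 kept 1 sign under every setting. That of Klrc3 probe 2 for HPD vs LFD ran from -1.23 to 0.26.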
